A study of Rattus norvegicus with 8 samples.

Results

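The Krüppel-like factors (KLFs) are transcription factors that bind GC-rich sequences and CACCC boxes through C2H2 zinc fingers, and in liver several of them link hormones, feeding and the circadian clock to metabolic genes. Klf9, also known as basic transcription element binding protein, is a gene that glucocorticoids and thyroid hormone induce. Klf15 is known for controlling amino acid breakdown and gluconeogenesis, Klf10 for its induction by transforming growth factor beta, and Klf2 and Klf4 for their roles in vascular endothelium. The genes described here are 9 of the 13458 named on the array. Klf2, Klf3, Klf4, Klf5, Klf6, Klf9, Klf10, Klf13 and Klf15 were taken as a list, and their probes were found by matching the transcript accession of every array probe to a gene symbol. They have 14 of the 41012 probes on the array. A probe was kept when its signal was marked as well above background in either colour on at least 4 of the 8 arrays, which 12 of the 14 probes and 26981 of all probes met. The 12 probes stand for 8 of the 9 genes, since both Klf5 probes were not kept.

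The study asked how testosterone acts on the liver of rats with and without leptin signalling. Liver RNA came from male Zucker diabetic fatty rats aged 12 weeks, either lean (fa/+, 1 copy of the fa allele of the leptin receptor gene) or obese (fa/fa, in which the leptin receptor is defective in every cell). Lean and obese rats had received vehicle or testosterone undecanoate (TU), a long-acting testosterone ester, at 20 mg/kg under the skin for 4 weeks, every 3 days for 2 weeks and then weekly for 2 weeks. Each of the 8 two-colour arrays, 4 lean and 4 obese, carried RNA of vehicle-treated rats labelled with Cy3 and RNA of TU-treated rats of the same genotype labelled with Cy5. The labels call the arrays biological replicates without saying whether an RNA came from 1 animal, so the tests measure the spread between these RNAs.

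No array had its dyes exchanged, so within a genotype TU and the Cy5 dye cannot be told apart, while a dye effect shared by both genotypes cancels in the difference between their responses. The lean arrays were all on slide 1 and scan 1 and the obese arrays all on slide 2 and scan 2, so obesity cannot be told apart from slide and scan. Values are log2 signals after background correction and normalization, and a response is the log2 ratio of TU over vehicle on an array. Changes are given as log2 fold changes ± SE from limma, fitted to every kept probe, and a probe is called when its Benjamini-Hochberg adjusted p over all of them lies under 0.05. Between 58.5% and 69.1% of probes were well above background in Cy3 and between 50.5% and 60.6% in Cy5. Log2 ratios spread most on obese replicate 2 (SD 0.46), and the remaining SDs were 0.15 to 0.25. All 9 hepatocyte marker genes, albumin among them, were kept, and their summed signal was 795800 to 863000 in the lean and 814900 to 1141000 in the obese vehicle samples. In whole liver, fewer cells of a type and less RNA per cell cannot be told apart.

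Klf9 and Klf6 are the genes whose bright probes were called below, Klf9 for TU and Klf6 between genotypes, and their promoters are shown for that reason. RefSeq's table for the rat build GRCr8 held a promoter for 6 of the 9 genes, Klf3, Klf4, Klf5, Klf6, Klf9 and Klf15. The sequences are the 250 bases before the annotated start, 5′ to 3′ on the gene's strand. Klf9 lies on the plus strand with this promoter at chr1:230126396-230126645, and Klf6 on the minus strand with its promoter at chr17:69458479-69458728. Capitals mark matches, on either strand, to a GC box (GGGCGG) or a CACCC box (CCACCC), both bound by KLF proteins, to a half-site of the glucocorticoid receptor (TGTTCT) or to an E-box of the clock proteins (CACGTG).
Klf9: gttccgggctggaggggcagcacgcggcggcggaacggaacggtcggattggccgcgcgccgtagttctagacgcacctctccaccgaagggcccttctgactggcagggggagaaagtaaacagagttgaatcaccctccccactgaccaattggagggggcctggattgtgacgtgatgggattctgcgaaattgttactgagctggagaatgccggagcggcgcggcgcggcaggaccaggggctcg
Klf6: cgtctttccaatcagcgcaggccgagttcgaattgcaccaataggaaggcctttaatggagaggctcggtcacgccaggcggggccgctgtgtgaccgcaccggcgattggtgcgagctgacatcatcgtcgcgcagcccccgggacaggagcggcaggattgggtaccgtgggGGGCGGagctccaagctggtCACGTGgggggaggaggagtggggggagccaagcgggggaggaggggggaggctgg

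The Klf6 promoter held 1 GC box, at bases 76 to 71 before the start, and 1 E-box, at bases 56 to 51. None of the 4 motifs' letters, as searched, occurred in the Klf9 window. That window does hold CACCC without the leading C of the searched CCACCC. Over 33469 promoter windows of the same length, 30.5% held the GC box, 26.1% the CACCC box, 17.5% the receptor half-site and 5.6% the E-box. Of the 6 KLF promoters, 1 held a GC box (Klf6), 1 the CACCC box as CCACCC (Klf3, 3 matches on the minus strand), 0 the half-site and 2 an E-box (Klf6 and Klf15). The shorter CACCC, which was not searched for, also lies on either strand in the Klf5, Klf9 and Klf15 windows. No matches to different motifs overlapped in these promoters. A match describes the letters in the window and is not evidence of binding.

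Klf9 was the KLF with a called rise with TU, in lean liver on 1 probe. On its brighter probe (A_43_P13064) the log2 ratio of TU over vehicle was 0.54, 0.84, 0.89 and 0.52 on lean replicates 1 to 4. It was 0.19, 0.63, 0.18 and 0.31 on obese replicates 1 to 4. All 8 ratios lay above 0, and only obese replicate 2 reached into the lean range. The mean change was 0.70 ± 0.093 in lean liver (adjusted p = 0.0246), a 1.62-fold rise. In obese liver it was 0.33 ± 0.093 (unadjusted p = 0.0062, adjusted p = 0.161), which was not called. The test of the difference between genotypes gave −0.37 ± 0.13 (unadjusted p = 0.0205, adjusted p = 0.475), so a smaller response in obese liver was not shown.

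The dimmer Klf9 probe (A_44_P322590) had a median Cy3 signal of 64.2 over its local background, against 2152.5 for the brighter one. Its log2 ratios were 0.40, 0.50, 0.32 and 0.31 on lean replicates 1 to 4, all above 0. On the obese arrays they were 0.21, −0.42, 0.25 and 0.17, and obese replicate 2 stood apart below 0. The mean was 0.38 ± 0.10 in lean liver (adjusted p = 0.117) and 0.05 ± 0.10 in obese liver (adjusted p = 0.811). The difference between genotypes was −0.33 ± 0.15 (adjusted p = 0.532). Both Klf9 probes thus had a higher mean ratio in lean than in obese liver, and neither difference was called.

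The lean call on the brighter Klf9 probe was held under 13 of 20 other ways of processing or leaving out an array, with adjusted p from 0.0026 to 0.178 over the 20, and the log2 change was positive in all of them. It was lost without lean replicate 1 (0.75, adjusted p = 0.0958), without lean replicate 2 (0.65, adjusted p = 0.134), without lean replicate 3 (0.63, adjusted p = 0.122) and without obese replicate 4, which changed the shared spread only (adjusted p = 0.0574). It was also lost with limma's trended robust prior, which gave the largest adjusted p (0.178), and with the replicate number as a block (adjusted p = 0.0591). Centring each array on its median in place of loess gave 0.45 ± 0.17 in lean liver (adjusted p = 0.0983) and 0.58 ± 0.17 in obese liver (adjusted p = 0.133), which turned the sign of the difference to 0.12 ± 0.23 (adjusted p = 0.747). With that centring the median of all probes shifted to −0.11 in lean and 0.02 in obese liver. On the dimmer probe the scanner software's processed signals, which carry no added offset, gave 0.78 ± 0.21 in lean liver (adjusted p = 0.103), close to the 0.79 ± 0.12 they gave on the brighter probe.

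**Figure D1:**
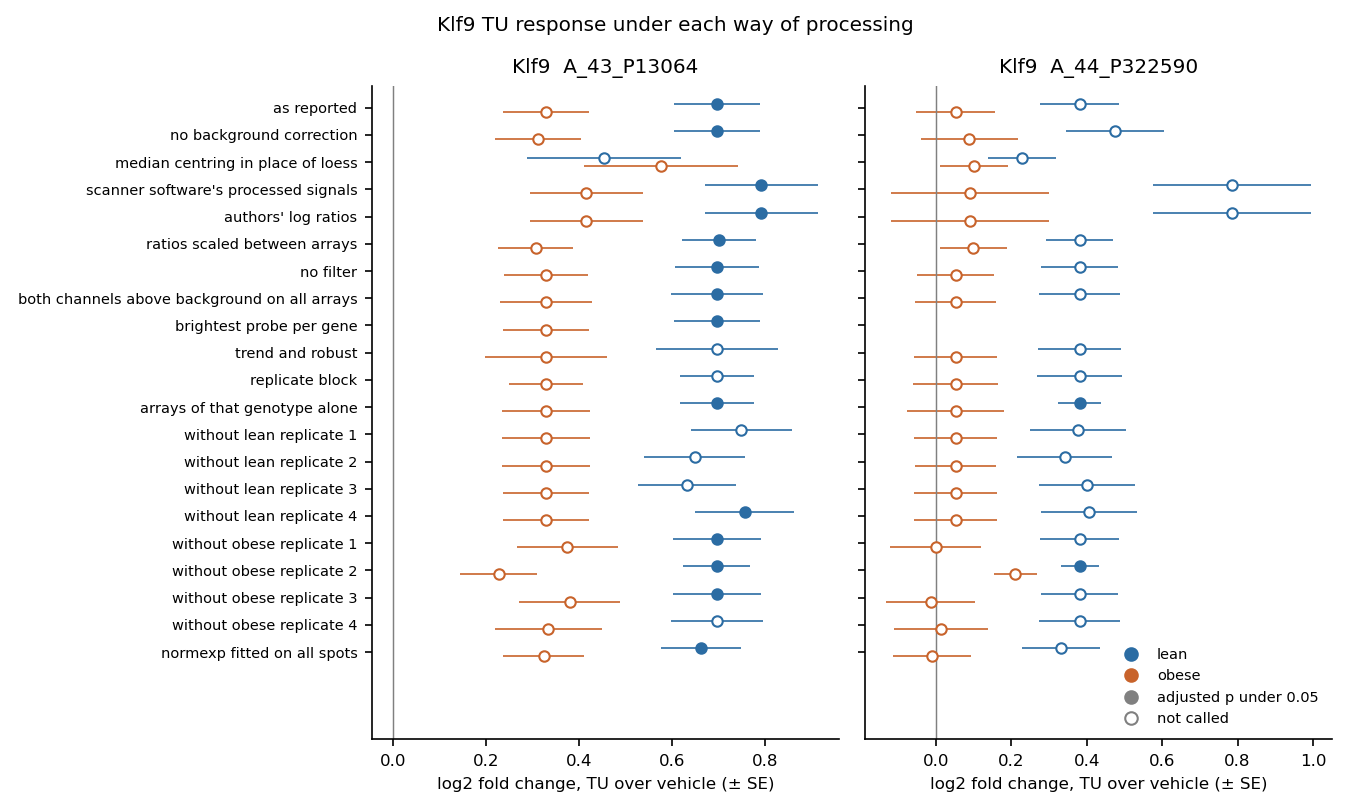
Log2 fold change of Klf9 with TU (horizontal axis, ± SE) for its 2 kept probes under each way of processing (vertical axis), in lean (blue) and obese (orange) liver, with filled points where the adjusted p lay under 0.05. On the left probe the lean values sit between 0.45 and 0.79 and are filled in most rows, no obese value is filled, and the order of lean and obese turns with median centring.

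By level, Klf9 on the brighter probe stood lowest in lean vehicle-treated liver at 10.97 ± 0.28 (SD, n = 4), followed by obese vehicle-treated liver at 11.03 ± 0.62, obese TU-treated liver at 11.36 ± 0.54 and lean TU-treated liver at 11.67 ± 0.15. The lean TU samples, at 11.45 to 11.77, did not overlap the lean vehicle samples, at 10.61 to 11.20. Each of the other neighbours in this order overlapped. The 4 obese vehicle samples split into 10.53 and 10.45 on replicates 1 and 2 and 11.66 and 11.47 on replicates 3 and 4. Obese over lean was 0.06 ± 0.30 under vehicle (adjusted p = 0.918) and −0.31 ± 0.25 under TU (adjusted p = 0.412).

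The dimmer Klf9 probe was called between genotypes under vehicle, unlike the brighter one. Its level was 6.89, 6.46, 6.59 and 6.80 in the lean vehicle samples and 6.96, 7.24, 7.10 and 7.27 in the obese ones, without overlap. Obese over lean was 0.46 ± 0.12 (adjusted p = 0.0310), a 1.38-fold difference that was called. Under TU it was 0.13 ± 0.15 (adjusted p = 0.576). The call under vehicle was lost in 8 of 18 alternatives, with adjusted p from 0.0195 to 0.0981, among them those without lean replicate 2 (0.38, adjusted p = 0.0788), lean replicate 3 (0.43, adjusted p = 0.0918) or lean replicate 4 (0.50, adjusted p = 0.0625), and those without obese replicate 2 (0.42, adjusted p = 0.0535), obese replicate 3 (0.47, adjusted p = 0.0525) or obese replicate 4 (0.42, adjusted p = 0.0689). The other 2 were no step between arrays (adjusted p = 0.0981) and the replicate number as a block (adjusted p = 0.0870). The processed signals gave 1.18 ± 0.29 on this probe (adjusted p = 0.0200) and −0.14 ± 0.31 on the brighter probe (adjusted p = 0.774). As reported, both probes lay above 0 under vehicle, at 0.46 and 0.06. The difference between the probes was not tested, and the call rests on the dimmer probe alone.

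**Figure D2:**
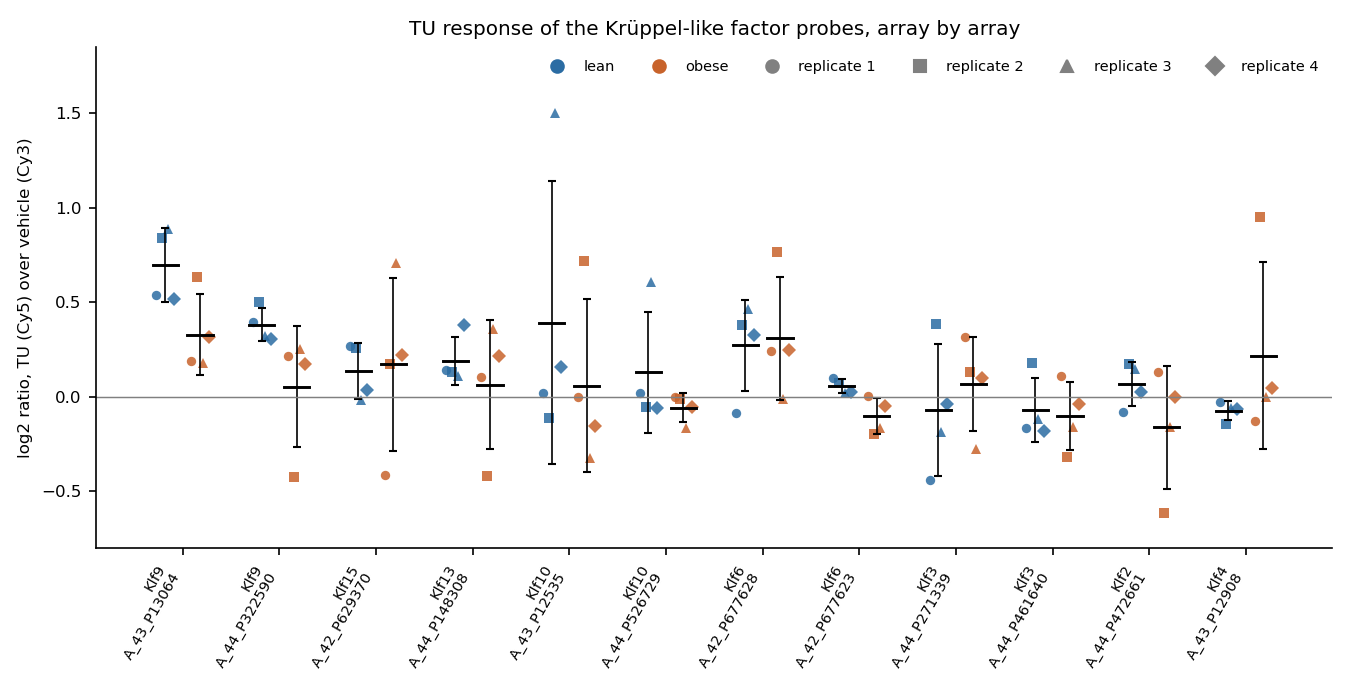
Log2 ratio of TU (Cy5) over vehicle (Cy3) on each array (vertical axis) for the 12 kept KLF probes (horizontal axis), lean in blue and obese in orange, with symbols for the replicate and black bars for the mean ± SD of 4 arrays. The brighter Klf9 probe has its 4 lean arrays between 0.52 and 0.89, while single arrays stand apart on the Klf10 probes (lean replicate 3) and on Klf4 and Klf2 (obese replicate 2).

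Of the 12 kept probes of the listed genes, 1 (8.33%) was called for TU in lean liver, against 0.988% of all kept probes. That 1 is the brighter Klf9 probe. The genes were chosen with earlier results of these data known, so this share is a description only. An unadjusted p under 0.05 was found for 2 of the 12 in lean liver and for 16.4% of all kept probes. In obese liver 0 of 12 were called, against 0.0334% of all kept probes, and 2 of the 12 had an unadjusted p under 0.05, as did 17.5% of all kept probes. The difference in response was called for 0 of 12 probes and for 0% of all kept probes, with limma's unadjusted p under 0.05 for 1 of the 12 and for 2547 (9.46%) of all. The median change of the 12 probes was 0.13 in lean and 0.06 in obese liver, beside −0.02 and −0.01 over all kept probes, and 9 and 8 of the 12 lay above 0. The 12 values are not independent, since Klf3, Klf6, Klf9 and Klf10 have 2 probes each.

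Klf15 and Klf13 were not called for TU in either genotype. Klf15 had log2 ratios of 0.27, 0.26, −0.02 and 0.03 on the lean and −0.41, 0.17, 0.71 and 0.22 on the obese arrays, with means of 0.13 ± 0.14 (adjusted p = 0.715) and 0.17 ± 0.14 (adjusted p = 0.543). Klf13, a factor related to Klf9 in its zinc fingers, had a mean of 0.19 ± 0.11 in lean liver (adjusted p = 0.453), with 0.38 on lean replicate 4 and 0.11 to 0.14 on the other 3. In obese liver Klf13 had 0.06 ± 0.11 (adjusted p = 0.789), with −0.42 on obese replicate 2. Klf6, an early-response gene, had a positive mean on its brighter probe (A_42_P677628) in both genotypes, 0.27 ± 0.12 in lean liver (adjusted p = 0.321) and 0.31 ± 0.12 in obese liver (adjusted p = 0.256), and neither was called.

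Klf10 showed 1 array apart from the others on both of its probes. Its brighter probe (A_43_P12535) had log2 ratios of 0.02, −0.11, 1.50 and 0.16 on lean replicates 1 to 4, and its dimmer probe (A_44_P526729) had 0.02, −0.05, 0.61 and −0.06. Lean replicate 3 was the high array on both. The lean means were 0.39 ± 0.25 (adjusted p = 0.501) and 0.13 ± 0.10 (adjusted p = 0.604). Without lean replicate 3 they were 0.02 and −0.03, so the lean means of Klf10 rest on that array. In obese liver the means were 0.06 ± 0.25 (adjusted p = 0.919) and −0.06 ± 0.10 (adjusted p = 0.787).

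The endothelial factors Klf2 and Klf4 and the repressor Klf3 were not called for TU. Klf4 had ratios of −0.03 to −0.14 on the lean arrays and 0.95 on obese replicate 2, against −0.13 to 0.04 on the other 3 obese arrays. Klf2 stood at −0.61 on the same array, and its remaining 3 obese ratios were −0.16 to 0.13. The 2 Klf3 probes had means between −0.10 and 0.07 over both genotypes. Without obese replicate 2, the array with the largest SD of log2 ratios, the obese mean of Klf4 went from 0.21 to −0.03 and that of Klf2 from −0.16 to −0.01, so both rest on that array.

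Between genotypes the calls fell on Klf6, Klf10 and the dimmer Klf9 probe. Under vehicle 3 of 12 probes (25%) were called, 2 higher and 1 lower in obese liver, against 18.4% of all kept probes. Under TU 2 of 12 (16.7%) were called, 1 higher and 1 lower, against 21.8% of all kept probes. These shares lie near the background. Where 2 groups of values of a probe are said not to overlap, the share of all kept probes doing so was not counted. Such a gap therefore does not set a probe apart from the rest. The 2 comparisons use the same arrays, and their values are given side by side.

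Klf6 was lower in obese liver on its brighter probe. The level under vehicle was 10.36, 10.20, 9.95 and 10.11 in the lean samples and 9.71, 9.02, 9.80 and 9.58 in the obese samples. Under TU it was 10.28, 10.57, 10.41 and 10.44 in the lean and 9.95, 9.78, 9.78 and 9.83 in the obese samples. The genotypes overlapped in neither treatment. Obese over lean was −0.63 ± 0.18 under vehicle (adjusted p = 0.0461) and −0.59 ± 0.082 under TU (adjusted p = 0.00243). The call under TU held in 18 of 19 alternatives (adjusted p from 0.0014 to 0.0855), and was lost with no step between arrays.

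The vehicle call of Klf6 was lost in 10 of 19 alternatives, with adjusted p from 0.0125 to 0.122. It was lost without lean replicate 1 (−0.56, adjusted p = 0.122), 2 (−0.61, adjusted p = 0.114), 3 (−0.69, adjusted p = 0.0743) or 4 (−0.64, adjusted p = 0.104), and without obese replicate 4 (−0.65, adjusted p = 0.0772). It was also lost with quantile normalization between channels (adjusted p = 0.0504), no step between arrays (0.0829), no filter (0.0609), the trended robust prior (0.0522) and the replicate number as a block (0.0868). The processed signals gave larger differences on this probe, −0.95 ± 0.21 under vehicle (adjusted p = 0.0149) and −0.89 ± 0.12 under TU (adjusted p = 0.0018). The dimmer Klf6 probe (A_42_P677623, median Cy3 signal 44.0 over background) had the opposite sign, 0.22 ± 0.070 under vehicle (adjusted p = 0.0618) and 0.07 ± 0.073 under TU (adjusted p = 0.573), neither of them called. The decrease of Klf6 therefore rests on 1 of its 2 probes.

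Klf10 was higher in obese liver on its dimmer probe (median Cy3 signal 57.5 over background). The level under vehicle was 6.35, 6.30, 6.17 and 6.61 in the lean samples and 7.05, 6.87, 7.18 and 7.22 in the obese samples. Under TU it was 6.37, 6.25, 6.78 and 6.55 in the lean and 7.05, 6.86, 7.01 and 7.17 in the obese samples. The genotypes overlapped in neither treatment. Obese over lean was 0.72 ± 0.12 under vehicle (adjusted p = 0.00659) and 0.54 ± 0.12 under TU (adjusted p = 0.0186).

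The vehicle call of this Klf10 probe held in 18 of 18 alternatives (adjusted p from 0.0020 to 0.0276). The TU call held in 17 of 18 (adjusted p from 0.0044 to 0.0544) and was lost without lean replicate 1 (0.51, adjusted p = 0.0544). From the processed signals the differences were 1.99 ± 0.32 (adjusted p = 0.0047) and 1.16 ± 0.33 (adjusted p = 0.0293), which are larger, and the step that sets the size apart was not tested. On the brighter Klf10 probe the levels under vehicle were 9.09, 9.28, 8.79 and 9.80 in lean and 9.06, 9.15, 10.46 and 10.27 in obese liver, and overlapped. The difference was 0.49 ± 0.37 (adjusted p = 0.396) under vehicle and 0.16 ± 0.34 (adjusted p = 0.776) under TU. Obese replicates 3 and 4 were the high pair on this probe, as they were on the brighter Klf9 probe. The genotype calls of Klf10 therefore rest on its dimmer probe alone. Klf3, Klf6, Klf9 and Klf10 all had the higher obese over lean value on the dimmer probe, under vehicle and under TU. Under vehicle, dimmer and brighter, these were 0.16 and −0.57, 0.22 and −0.63, 0.46 and 0.06, and 0.72 and 0.49. The part of signal strength in this was not tested.

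**Figure D3:**
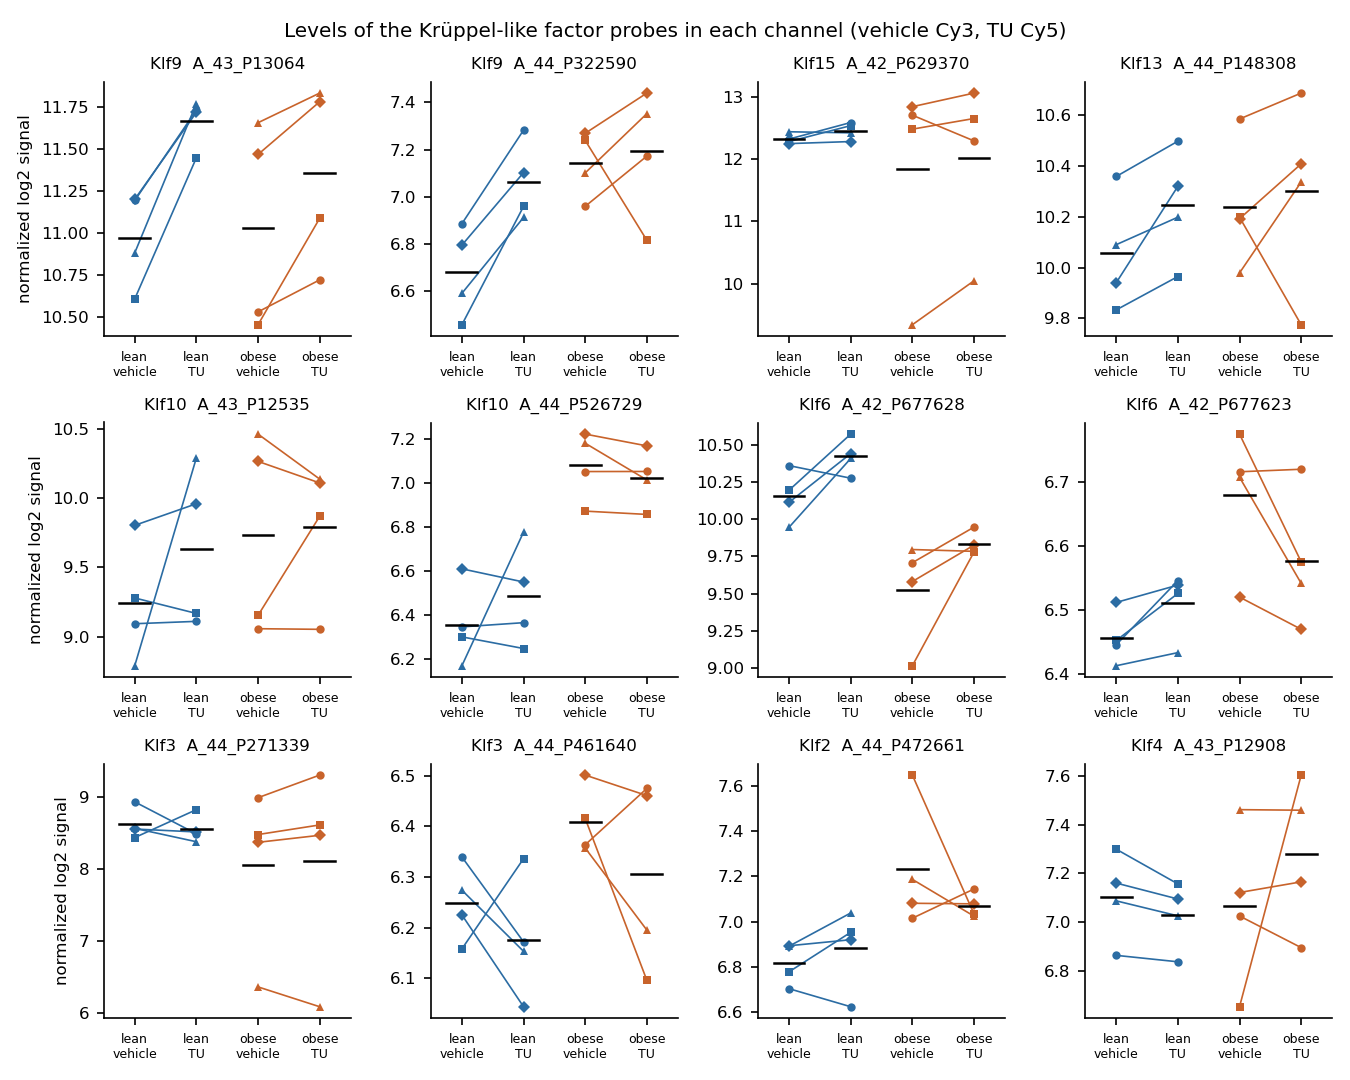
Normalized log2 signal (vertical axis, own scale in each panel) of the 12 kept KLF probes in lean (blue) and obese (orange) liver under vehicle and TU, with lines joining the 2 channels of an array, symbols for the replicate as in the plot of log2 ratios, and black bars for means of 4. Klf6 on A_42_P677628 is lower and Klf10 on A_44_P526729 higher in all obese samples, and obese replicate 3 is low for Klf15 and for Klf3 on A_44_P271339 in both channels.

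Klf15 was not called between genotypes, and 1 obese array stood apart in both channels. The level under vehicle was 12.25 to 12.44 in the lean samples and 12.71, 12.49, 9.34 and 12.85 in obese replicates 1 to 4. Under TU obese replicate 3 was also low, at 10.05, against 12.30, 12.66 and 13.07 in the other obese samples. Its Cy3 spot signal was 716 on that array and 4666 to 6808.5 on the other 7. Obese over lean was −0.48 ± 0.74 under vehicle (adjusted p = 0.693) and −0.45 ± 0.58 under TU (adjusted p = 0.633). Without obese replicate 3 the values turned to 0.36 ± 0.10 (adjusted p = 0.0562) and 0.21 ± 0.18 (adjusted p = 0.461), neither of them called.

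Klf3 had the same low array on its brighter probe (A_44_P271339), at 6.37 under vehicle and 6.09 under TU on obese replicate 3, against 8.37 to 9.30 in the other obese samples. The difference, obese over lean, was −0.57 ± 0.52 under vehicle (adjusted p = 0.481), and −0.01 ± 0.18 (adjusted p = 0.980) without that array. Of all probes, 0.244% lay at least 4-fold below the mean of the rest of their group on obese replicate 3, and 2.64% did on obese replicate 1. The dimmer Klf3 probe (A_44_P461640) was not low there, with 6.36 under vehicle beside 6.36 to 6.50 in the other obese samples. Both Klf3 probes and the Klf13 probe were named through the newer of 2 versions of the array annotation alone.

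Klf2 was higher in every obese vehicle sample, at 7.02 to 7.65 against 6.70 to 6.89 in the lean ones. The share of all kept probes with such a gap was not counted, and 9176 of 26911 had an unadjusted p under 0.05 by limma. The Klf2 difference of 0.42 ± 0.14 missed the threshold (adjusted p = 0.0769). Leaving out obese replicate 1 (0.50, adjusted p = 0.0433) or obese replicate 2 (0.27, adjusted p = 0.0412), or fitting both channels together (0.42, adjusted p = 0.0435), brought it under the threshold, and over all its alternatives the adjusted p was 0.0412 to 0.307. Under TU the Klf2 difference was 0.19 ± 0.097 (adjusted p = 0.210). Klf4 and Klf13 had differences of −0.04 ± 0.17 and 0.18 ± 0.16 under vehicle and of 0.25 ± 0.16 and 0.06 ± 0.20 under TU, none of them called. Klf5, an epithelial factor, was not well above background on any array with 1 probe, and on 3 arrays, in 4 of 16 channels, with the other, so no change is given for it.

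Of 17 other members of the KLF and SP families, 8 were kept. With TU 0 of the 8 were called in lean or obese liver, and Klf11, a relative of Klf10, had 0.35 (adjusted p = 0.117) and 0.33 (adjusted p = 0.167), while 1 and 3 of the 8 had an unadjusted p under 0.05, against 16.4% and 17.5% of all kept probes. Between genotypes under vehicle, 1 of the 8 was called higher and 1 lower in obese liver, against 18.4% of all kept probes called. Under TU 2 were higher and 1 lower, against 21.8%. Klf16 was higher in obese liver, by 0.73 under vehicle (adjusted p = 0.00695) and 0.56 under TU (adjusted p = 0.0166). Sp7 was lower in obese liver under vehicle (−0.46, adjusted p = 0.0193) and under TU (−0.61, adjusted p = 0.0169). Sp1, the widely expressed GC box factor, was higher in obese than in lean liver under TU, by 0.45 (adjusted p = 0.00556). It was not called under vehicle, but its TU response differed between genotypes by only 0.02 (adjusted p = 0.964). The summed signal of the 8 genes was 1726 to 2013 in lean and 2411 to 2768 in obese vehicle samples.

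Hormone pathways that are known to act on Klf9 were read from lists of receptor and target genes. The counts of called genes in these and the following lists stand beside 0.988% of all kept probes called for TU in lean liver, 0.0334% in obese liver, and 18.4% and 21.8% called between genotypes under vehicle and under TU. Of 19 kept genes of the glucocorticoid receptor list, 0 rose and 1 fell with TU in lean liver, the kinase gene Sgk1 (−0.74, adjusted p = 0.0284). The median of the 19 was 0.29 in lean and 0.18 in obese liver, beside −0.02 and −0.01 over all kept probes, and 15 and 13 of them lay above 0. In obese liver 0 were called, with 10 of 19 at an unadjusted p under 0.05 against 17.5% of all kept probes, and the smallest were Hsd11b1, which regenerates active glucocorticoid (0.71, adjusted p = 0.0719), and Tsc22d3 (0.89, adjusted p = 0.0818). Hsd11b1 was lower in obese than in lean liver under vehicle (−1.62, adjusted p = 0.000343) and under TU (−1.25, adjusted p = 0.000741), and so was Igfbp1 (−1.24, adjusted p = 0.0089, and −1.23, adjusted p = 0.0073). Under TU, Tsc22d3 (0.63, adjusted p = 0.0123) and Sgk1 (0.52, adjusted p = 0.0208) were higher in obese liver.

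Of 6 kept genes of the thyroid hormone list, 0 were called with TU in either genotype. The lowest p-values were those of the lipogenic genes Thrsp in lean (−0.89, adjusted p = 0.173) and Me1 in obese liver (−1.57, adjusted p = 0.0901). Under vehicle 4 of the 6 were higher and 1 lower in obese liver, against 18.4% of all kept probes called in either direction. Rxra (0.84, adjusted p = 0.0301), Thrsp (1.11, adjusted p = 0.0452) and Me1 (1.36, adjusted p = 0.0481) were among the higher ones, and Dio1, the hepatic deiodinase, was the lower one (−0.94, adjusted p = 0.00849).

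Clock genes are of interest because Klf9, Klf10 and Klf15 are rhythmic in liver, and the sources used here do not give the time of day at which tissue was taken. With TU, Per2 was the 1 called gene of 15, lower in lean liver (−1.27, adjusted p = 0.0349). Under vehicle 5 of 15 were higher and 2 lower in obese liver, against 18.4% of all kept probes called in either direction. Dbp, a transcription factor with a strong daily rhythm, differed by 4.46 under vehicle (adjusted p = 0.000204) and 4.07 under TU (adjusted p = 0.000577). Tef (0.57, adjusted p = 0.0168) and Nr1d2 (0.45, adjusted p = 0.0242) were also higher under vehicle, and Bmal1 was lower (−0.57, adjusted p = 0.0250). The summed clock signal was 4279 to 4755 in lean and 7310 to 13700 in obese vehicle samples. It was higher in obese liver, as was Klf10 on its dimmer probe, while Klf6 was lower on its brighter probe. The part of clock genes in these differences was not tested.

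Of 17 kept genes tied to Klf15 in amino acid breakdown and gluconeogenesis, 0 were called with TU. Pck1, a rate-controlling enzyme of gluconeogenesis, had 0.93 in lean liver (adjusted p = 0.115). Under vehicle 3 were higher in obese liver, Bckdhb (1.02, adjusted p = 0.00134), Gpt (1.03, adjusted p = 0.00523) and Cps1 (1.09, adjusted p = 0.0266), and 1 was lower, Prodh, the proline-degrading enzyme (−1.19, adjusted p = 0.0161). The median of the 17 was 0.14, beside 0.02 over all kept probes. Of 6 kept genes tied to Klf10 through transforming growth factor beta, 0 were called under vehicle between genotypes, all 6 lay above 0, and the median was 0.27. Under TU Smad7 (0.65, adjusted p = 0.00677) and Smad6 (0.33, adjusted p = 0.0349), inhibitors of that pathway, were higher in obese liver.

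Klf2, Klf4, Klf6 and Klf10 are often counted among the immediate early genes, which respond within minutes to growth factors and stress. Of 18 other kept genes of that kind, 2 rose with TU in lean liver, Egr1 (1.32, adjusted p = 0.0284) and Zfp36 (0.44, adjusted p = 0.0333), and 0 in obese liver. The median was 0.30 in lean and −0.01 in obese liver, beside −0.02 and −0.01 over all kept probes. The difference in response was called for 0 of 18, with 6 at an unadjusted p under 0.05 against 9.46% of all kept probes, and 17 of 18 had a lower mean response in obese liver. The share of all kept probes with a lower response was not counted. The median difference of all kept probes was −0.005 as reported and 0.15 with median centring. The values of the 18 genes under that centring are not given here. Between genotypes under vehicle, 2 of the 18 were higher and 0 lower in obese liver. There 13 of the 18 lay above 0, and the median was 0.19. Under TU 4 of the 18 were lower and 1 higher in obese liver, with a median of −0.01. The lower ones included Jun (−1.14, adjusted p = 0.0017), Myc (−1.17, adjusted p = 0.0150) and Gadd45b (−0.60, adjusted p = 0.0279). The higher one was Jund (0.67, adjusted p = 0.0318).

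**Figure D4:**
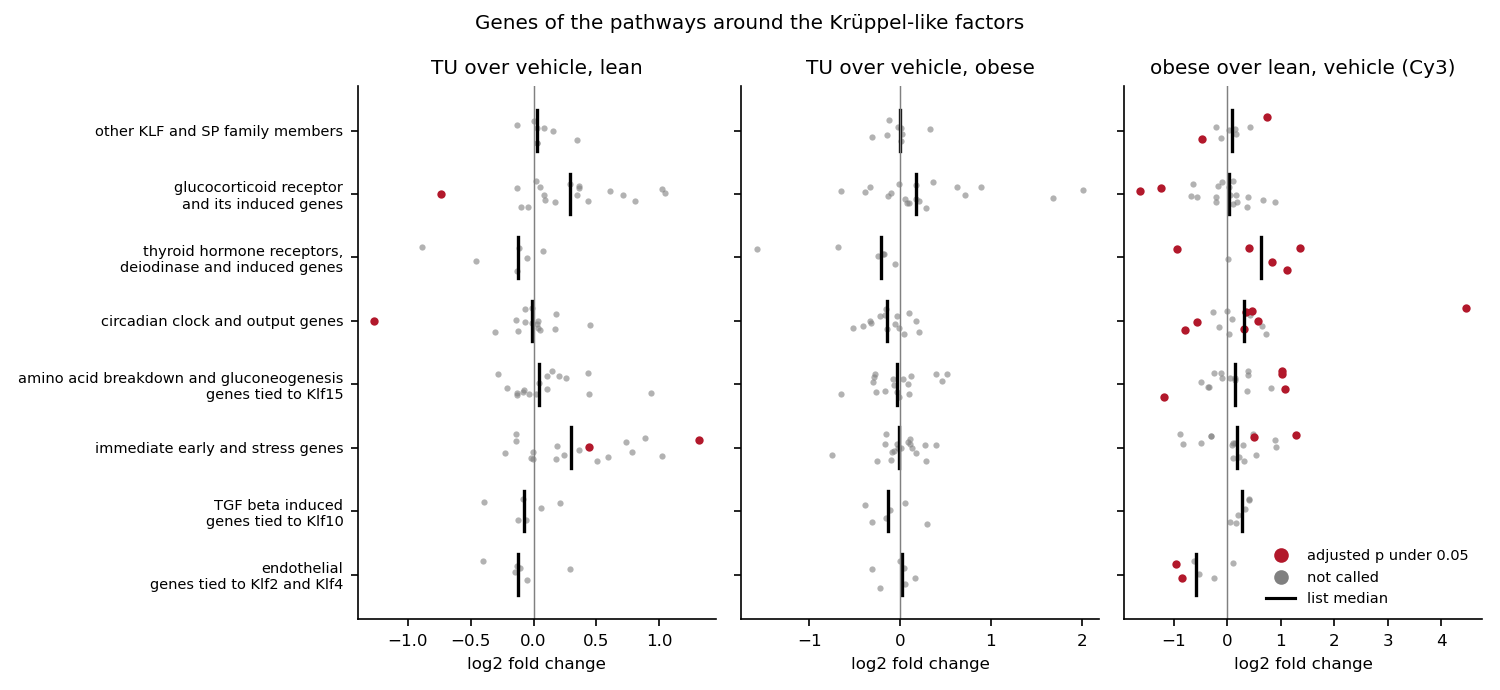
Log2 fold change (horizontal axis) of each kept gene of 8 lists around the KLFs (vertical axis) for TU in lean liver, TU in obese liver and obese over lean liver under vehicle, with called genes in red, others in grey and the list median as a black bar. Few genes are called for TU (Sgk1, Per2, Egr1 and Zfp36 in lean liver and 0 in obese liver), while Dbp at 4.46 stands far from the other genes between genotypes.

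Vascular genes and cell type markers were set beside the KLFs that other liver cells also express. Of 6 kept endothelial genes tied to Klf2 and Klf4, 0 were called with TU, and under vehicle 2 were lower in obese liver, the angiopoietin receptor gene Tek (−0.96, adjusted p = 0.000771) and Nr2f2 (−0.85, adjusted p = 0.0240), with a median of −0.58 beside 0.02 over all kept probes. Of 10 liver endothelial markers 7 were kept, with 1 lower under vehicle (Tek), and their summed signal was 13350 to 15590 in lean and 9865 to 14720 in obese vehicle samples. Of 10 markers of Kupffer cells and macrophages 8 were kept, and their sum was 24050 to 33980 in lean and 20170 to 28660 in obese samples under vehicle, which overlapped, and 25000 to 27620 in lean and 17940 to 20140 in obese samples under TU. Under vehicle 0 of the 8 were called and 5 lay above 0 (median 0.07), and under TU 1 was higher (Vsig4, 0.94, adjusted p = 0.0180), 1 was lower (Clec4f, −0.92, adjusted p = 0.00112) and 4 lay above 0. The lymphocyte sum, over 3 of 8 markers, was 505.6 to 586.5 in lean and 285.8 to 383.6 in obese vehicle samples, with Cd3d lower (−0.96, adjusted p = 0.00662). Under TU the lymphocyte sum was 512.3 to 632.1 in lean and 315.4 to 421.4 in obese samples. The lymphocyte sum was thus lower in all obese samples under both treatments, and the macrophage sum under TU alone. Of the 3 lymphocyte markers, 1 was called lower under vehicle and 1 under TU. Their median was −0.24 under vehicle and −0.14 under TU, where 1 of the 3 lay above 0. Klf6 on its brighter probe was lower under both treatments, and the part of lymphocytes and macrophages in that decrease was not tested.

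Stellate cell markers, 7 of 8 kept, were higher under vehicle for 2 genes and lower for 1 (Lrat, −0.97, adjusted p = 0.0155), with sums of 7223 to 8469 in lean and 7343 to 11600 in obese liver. For TU in lean liver, 0 markers of endothelium, macrophages, stellate cells, cholangiocytes, lymphocytes, neutrophils or red cells were called. Of the hepatocyte markers Ambp was called (0.66, adjusted p = 0.0124), and in obese liver too (0.67, adjusted p = 0.0461). The red cell markers, 3 of 5 kept, had a median of 0.83 in lean and −0.26 in obese liver, with Alas2 at 1.04 (adjusted p = 0.105) and Hbb at 0.83 (adjusted p = 0.345) in lean liver. They moved the same way as Klf9 in lean liver, without a call, and their part was not tested. Cholangiocyte and neutrophil markers, 3 of 5 and 2 of 4 kept, had 0 calls between genotypes.

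The genes whose ratios were most like those of the brighter Klf9 probe were found by the root mean square difference of the log2 ratio over the 8 arrays, among 9811 named genes. They were Akap10 (0.152), an anchoring protein for protein kinase A, Ndrg2 (0.177), Tec (0.198), a tyrosine kinase, Ndufb2 (0.212), a subunit of respiratory complex I, and Or4f14d (0.212), an olfactory receptor gene. Ndrg2 had ratios of 0.51, 0.95, 0.64 and 0.73 on the lean and 0.23, 0.42, 0.46 and 0.38 on the obese arrays, and Akap10 had 0.33, 0.57, 0.76 and 0.36 on the lean and 0.14, 0.49, 0.23 and 0.35 on the obese arrays. Each was chosen for this likeness, so the values are a description.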

How the data were processed

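Liver RNA of 4 lean and 4 obese array pairs was measured on 2-colour Agilent arrays. Per the file headers, the intensity of each spot and of its surroundings is a median over pixels, taken with Agilent Feature Extraction 10.7.3.1. The deposited files also give processed intensities, from which background had been subtracted and dye bias removed, and their log10 ratio, red over green, per the file headers. Further deposited columns hold spot flags. How the authors normalized their deposited log2 ratios is not stated. Their base and direction were found from the scanner's log10 ratio, on which they had slopes of 3.33 to 3.38, and their column medians were 0.0459 to 0.139.

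Spots were background-corrected by normexp (offset 50) and normalized by loess in limma 3.58.1 (R 4.3.3), and channels were compared after an Aquantile step between arrays. Control spots, non-uniform spots and spots whose local background lay over 10 median absolute deviations above the array's median (0 to 80 per array) were left out. The last step was chosen after seeing the data, with the KLF values from a fit on all spots known, because normexp failed on arrays with such spots. Its effect is given below. Mean signals had been planned for, and medians took their place since no means are in these files.

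Each of 41012 probes was 1 feature. Probes were named through RefSeq's genes of the GRCr8 assembly, and 16815 had a name by the newer annotation, 195 by the older alone and 24002 none. The KLF genes and the gene lists were chosen with earlier results of these data known. Of each list the text names up to 4 called genes by adjusted p, or otherwise those with the smallest p, each by its brightest probe. Tests were limma's moderated tests with Benjamini-Hochberg adjustment over all kept probes in 5 comparisons, after checking the code on simulated data. The number of arrays limits the precision. Arrays of the same replicate number deviated together with r of 0.0711, −0.115, 0.0848 and −0.0215, so the numbers were not used as pairs. The number of deposited columns not mapped to a sample was 0. The results of 1 further gene list are not reported here.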

Additional observations from a re-analysis of the deposited data

Results flagged for a closer look

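Among 72 sets of 4 values (log2 ratios and levels of the 12 kept probes), 8 had 1 array far from the other 3 by Dixon's test, which chance alone does in about 5% of sets. On the log2 ratio of TU over vehicle, these were the dimmer Klf9 probe on obese replicate 2 (−0.42, the others 0.17 to 0.25), Klf4 on obese replicate 2 (0.95, the others −0.13 to 0.04), Klf13 on lean replicate 4 (0.38, the others 0.11 to 0.14) and the dimmer Klf3 probe on lean replicate 2 (0.18, the others −0.18 to −0.12). Klf10 was high on lean replicate 3 with both probes, at 1.50 (the others −0.11 to 0.16) and 0.61 (the others −0.06 to 0.02). On the level, Klf15 was low on obese replicate 3 under vehicle (9.34, the others 12.49 to 12.85), and the brighter Klf9 probe was low on lean replicate 2 under TU (11.45, the others 11.72 to 11.77).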

How the results depend on the processing

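TU calls over the whole array in lean liver, 266 as reported, were 3456 with median centring (178 higher and 3278 lower, against 166 and 100 as reported, with the median of all probes at −0.11), 786 with ratios scaled between arrays, 162 with both channels above background on all arrays, 0 with limma's trended robust prior (4037 at an unadjusted p under 0.05), 1129 with the lean arrays alone, 48 with normexp fitted on all spots, and 3 to 1702 without 1 array (3 without lean replicate 2, 1702 without obese replicate 2). In obese liver the 9 calls became 23 with no background correction, 181 with median centring, 209 from the processed signals, 203 from the authors' log ratios, 478 with scaled ratios, 3 with normexp on all spots, 0 with limma's trended robust prior (4219 at an unadjusted p under 0.05), 0 with the obese arrays alone (2854), and 0 to 22 without 1 array. The difference in response, with 0 calls by limma (2547 at an unadjusted p under 0.05), had 715 with median centring, 2 from the processed signals, 2 from the authors' log ratios, 1 with normexp on all spots and 0 to 2 without 1 array. Between genotypes, 4940 calls under vehicle (2759 higher and 2181 lower) became 2950 with no step between arrays (940 and 2010) and 2324 to 7146 without 1 array, and 5878 under TU became 3788 to 9050 without 1 array, with 1737 higher and 2210 lower of 3947 with no step between arrays against 3383 and 2495. With the replicate number as a block the calls were 31 for TU in lean liver, 0 in obese liver (4511 at an unadjusted p under 0.05) and 2819 under vehicle, but the numbers do not pair the samples. Normexp on all spots was chosen as an alternative after seeing the data. The cause of these changes was not tested.

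Of 1139 alternative values of the 60 KLF results, 1059 kept their sign and side of the threshold, 27 lost a call, 10 gained one and 43 changed sign, of which 0 were called. With median centring the TU value turned to −0.082 for Klf13, −0.066 for Klf15, −0.076 for Klf2 and −0.020 for the dimmer Klf6 probe in lean liver, and the Klf9 difference to 0.12. The processed signals turned obese over lean to −0.14 for the brighter Klf9 probe under vehicle, and to −0.0096 for the brighter Klf10 probe and −0.063 for Klf13 under TU. Scaled ratios gave −0.010 for the brighter Klf10 probe with TU in obese liver, no step between arrays −0.0098 for the brighter Klf9 probe under vehicle, and normexp on all spots −0.0097 for the dimmer Klf9 probe with TU in obese liver. Leaving out 1 array spread the TU value in obese liver over −0.16 to 0.19 for Klf10 (brighter probe), −0.035 to 0.22 for Klf13, −0.0078 to 0.37 for Klf15, −0.015 to 0.18 for Klf3 (brighter probe), −0.029 to 0.33 for Klf4 and −0.013 to 0.21 for Klf9 (dimmer probe), and in lean liver over −0.031 to 0.19 for Klf10 (dimmer probe) and −0.22 to 0.054 for Klf3 (brighter probe). Obese over lean spread under vehicle over −0.82 to 0.36 for Klf15, −0.17 to 0.10 for Klf4 and −0.16 to 0.25 for Klf9 (brighter probe), and under TU over −0.014 to 0.41 for Klf10 (brighter probe), −0.071 to 0.23 for Klf13, −0.80 to 0.21 for Klf15 and −0.84 to 0.24 for Klf3 (brighter probe). Signal over background limits the dim probes, and the added offset of 50 shrinks their ratios.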

Other observations

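The normexp step gave implausible background estimates when it was fitted on all spots of arrays that carry a few spots with extreme local background. Its fitted background mean fell as low as −645 in Cy3 and −716 in Cy5, against −5.4 to 2.9 and −9.2 to −6.4 when those spots were left out. On the array with the lowest values the SD of the log2 ratios was 0.106 with all spots and 0.194 without those spots. The Klf9 rise in lean liver was 0.66 ± 0.087 with all spots (adjusted p = 0.0354, and 0.0026 to 0.178 over all its alternatives).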
